A study of Mus musculus with 94 samples.

Results

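The 6 poly(A) RNA-seq libraries described here, of 94 samples in the series, come from mouse embryonic stem cells in which WAPL carries an FKBP degron. They are the libraries of the day 4 to 7 window, found by clone, treatment and window in the sample titles. The 3 dTAG-13 libraries had 500 nM of the degrader for 3 days of embryoid body differentiation and were harvested on day 7. The 3 DMSO libraries had the same volume of vehicle over the same days. Each arm holds replicates 1 and 2 of clone H7 and 1 library of clone H2. Every dTAG-13 library therefore has a DMSO partner of its own clone, and in H7 of its own number. All 6 libraries share the strain label CAST/Ei x 129/Sv/Jae, the genotype WAPL-FKBP(degron) and the cell type ES cell (Tsix-stop). Control cells also carry the tagged WAPL, and dTAG-13 in cells without the tag was not analysed here. Before that the cells grew with LIF on a layer of irradiated fibroblasts, then were differentiated without LIF, in suspension first and on gelatin from day 4. Clone H2 stands on 1 library a treatment, and the labels do not say whether the H7 replicates are cultures of their own. The p-values therefore cover the spread between these samples, which may be technical.

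The cohesin ring folds chromatin into loops, and WAPL opens that ring so that it leaves DNA. When WAPL is lost, cohesin stays on chromatin longer and loops grow. The molecule dTAG-13 binds the FKBP tag and brings it to a ubiquitin ligase, so the tagged protein is degraded while its mRNA is not touched. In embryoid bodies pluripotent cells pass through an epiblast-like state and begin to form the germ layers, and in female cells this is when Xist RNA silences one X chromosome.

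Total counts were 12786374, 28159967 and 12876787 in the dTAG-13 libraries (H7 replicate 1, H7 replicate 2, H2) and 35388461, 21418318 and 8413212 in the DMSO libraries in the same order, which is kept for all values below. Levels are CPM, read counts scaled to library size with edgeR's TMM factor, and are not comparable between genes because transcript length is not taken into account. A floor of 3 counts stood between 0.0835 and 0.374 CPM and covers counting error only. The 100 genes with most counts took between 10.9% and 12.2% of each library. A positive log2 value means higher with dTAG-13, and values come from a fit with a clone term.

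The degron acts on protein, so the transcript of the tagged gene does not check the labels. Wapl had 757, 922 and 229 CPM in the dTAG-13 libraries and 759, 842 and 244 CPM in the DMSO libraries (log2 0.02, SE 0.11, adjusted p = 0.939). The H2 libraries were the low ones in both arms, and the arms overlapped. The cells retained the stem cell factor Pou5f1, which encodes OCT4, at 776, 505 and 625 CPM with dTAG-13 and 742, 737 and 934 CPM with DMSO (log2 -0.33, adjusted p = 0.215). Without dTAG-13 replicate 1, Pou5f1 passed the threshold as lower (log2 -0.56, adjusted p = 0.0020).

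Which transcripts differed after 3 days of WAPL degradation was tested over 14544 of the 24421 genes in the table. At an adjusted p under 0.05, 1376 genes (9.46%) were higher with dTAG-13 and 833 (5.73%) were lower, 2209 or 15.2% in all. The median log2 fold change of all tested genes was -0.01. Changes of at least 2-fold were found in 602 higher genes (4.14%) and 165 lower genes (1.13%). The arms did not overlap for 4506 tested genes (31%), among them 2032 of the 2209 called. These 4 shares are the background for the gene lists below. The number of calls depended on the libraries. Leaving out dTAG-13 replicate 1 gave 2309 higher and 2124 lower genes. Leaving out a DMSO library of clone H7 gave 658 and 309 (replicate 1) or 666 and 311 (replicate 2). Without the H2 library of dTAG-13 there were 253 higher and 89 lower genes, and without that of DMSO 257 and 84. In both of these fits the clone term takes up the H2 library that remains, so the treatment effect comes from clone H7 alone. They are therefore nearly the same test, here and in every list below, and are not separate checks. A fit with the replicate pair as a block called 2234 higher (15.4%) and 1759 lower (12.1%) genes. Of the 2209 called genes, 325 were called in the same direction in all 6 fits that left out 1 library, 242 higher and 83 lower.

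**Figure D1:**
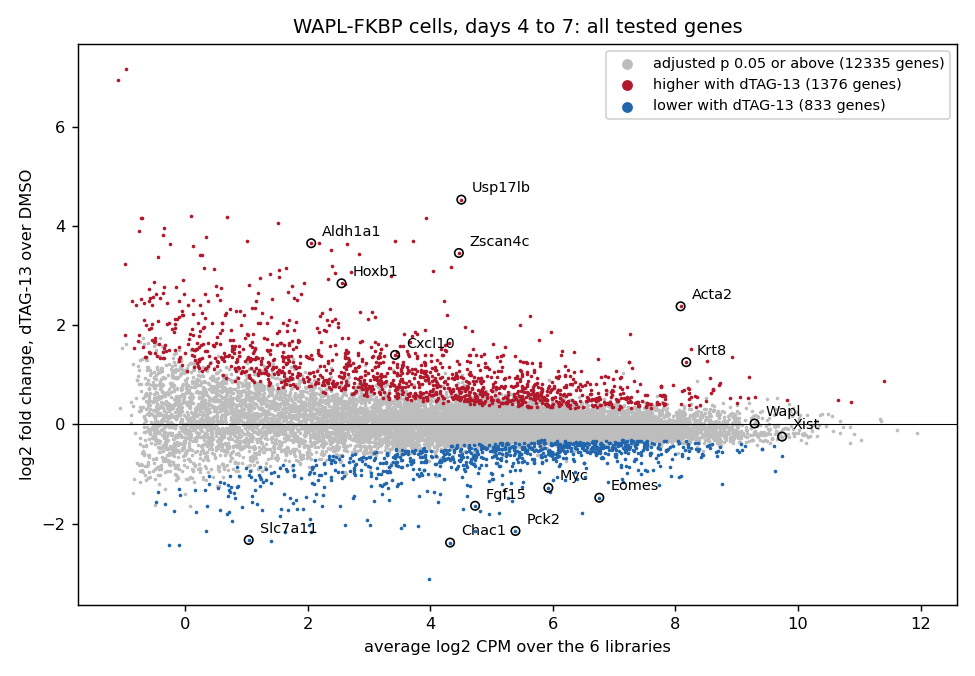
Log2 fold change, dTAG-13 over DMSO, against the average log2 CPM over the 6 libraries for the 14544 tested genes, with 15 genes of the text circled and named. The 1376 higher genes reach further from 0 than the 833 lower ones, and Wapl and Xist lie near 0 among the most abundant transcripts.

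**Figure D2:**
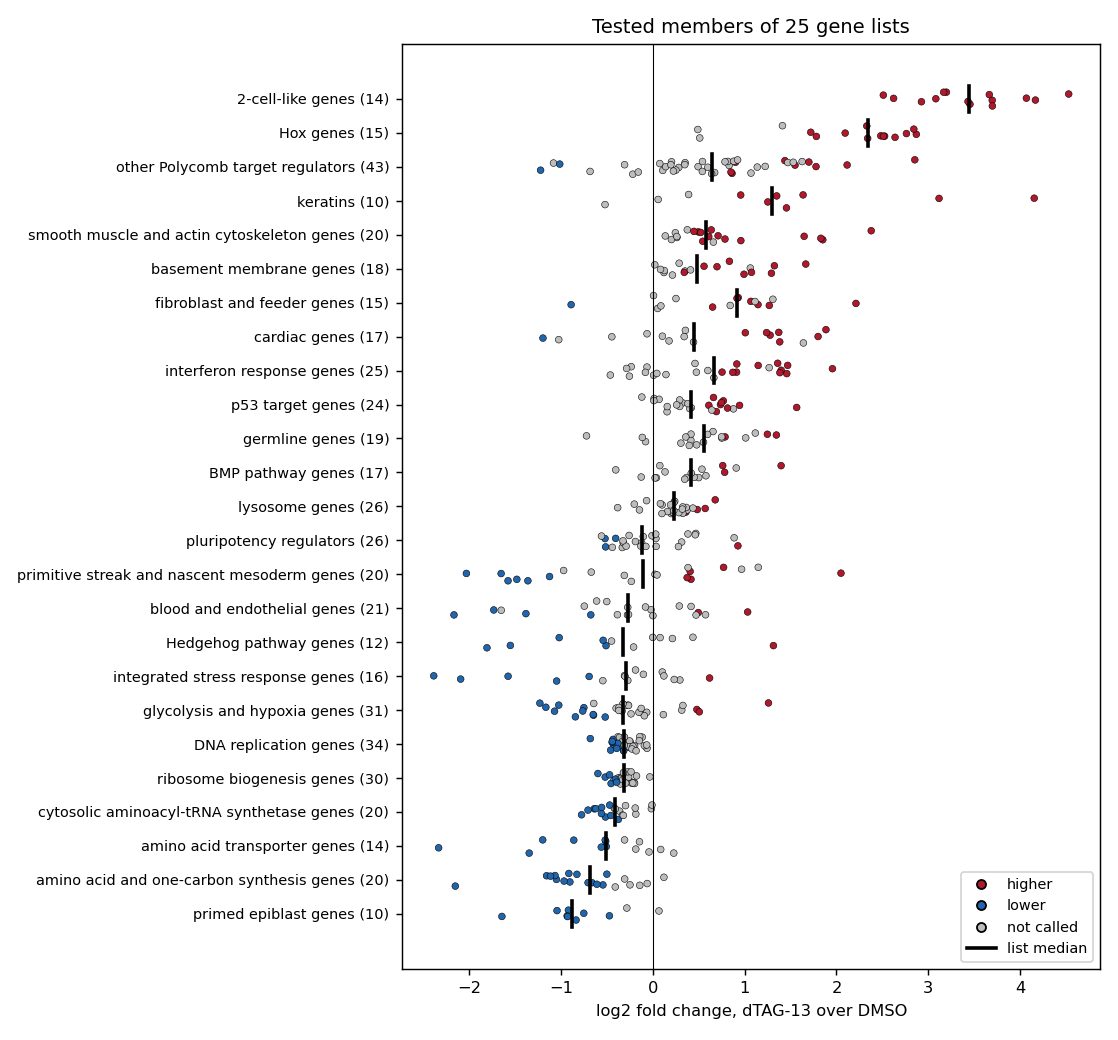
Log2 fold change, dTAG-13 over DMSO, of each tested member of 25 gene lists, with the number tested in parentheses and a black bar at the list median. The 2-cell-like and Hox lists lie furthest to the right, at medians of 3.44 and 2.34, and the primed epiblast and amino acid lists furthest to the left, at -0.88 and between -0.68 and -0.41.

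Genes of the 2-cell-like state had the largest median rise of the 42 lists. This state, a rare one in stem cell cultures, resembles the embryo at the time its own genome switches on. Usp17lb, a deubiquitinase gene, had 21.5, 16.8 and 95.6 CPM with dTAG-13 and 1.11, 0.848 and 2.74 CPM with DMSO (log2 4.53, SE 0.23, adjusted p = 4.3e-04). Zscan4d, of a zinc finger family linked to telomere maintenance, had 18.9, 16.9 and 76.1 CPM with dTAG-13, against 2.87, 1.37 and 6.86 CPM with DMSO (log2 3.17, SE 0.24, adjusted p = 7.38e-04). Zscan4c rose by 3.45, Usp17la by 4.17 and Usp17lc by 3.70 on the log2 scale. In all 5 genes the H2 library was the highest of its arm, and the lowest dTAG-13 library lay above the highest DMSO library.

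Of 17 members of this list with counts given, 14 were tested, and all 14 tested ones rose (9.46% of all tested genes), with a median of 3.44. Only 8 of the 14 reached the filter's minimum in all 3 DMSO libraries, so for the others a place in the test required high dTAG-13 values. The rises numbered 12 without the H2 library of dTAG-13 and 13 without that of DMSO. Tcstv1 and Tcstv3 had no count in any library, and Gm4340 had at most 2. The summed level over all 17 members was 148, 113 and 605 CPM with dTAG-13 and 16.7, 8.58 and 38.0 CPM with DMSO. Gm5662 and Gm2022, which stand for a multi-copy array on chromosome 12, rose by 3.43 and 3.66. Reads of the Zscan4, Usp17l and Gm copies can be shared between near-identical sequences, so the split among copies is uncertain. In bulk RNA, fewer cells of a kind and less RNA per cell cannot be told apart, here or in any result below.

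Hox genes, the regulators of body position that Polycomb keeps silent in stem cells, had the next largest median, 2.34. Hoxb1 had 6.11, 5.44 and 21.5 CPM with dTAG-13, against 1.36, 0.613 and 1.5 CPM with DMSO (log2 2.84, SE 0.34, adjusted p = 0.00297). Hoxc13, of the posterior end of its cluster, had 5.72, 10.7 and 8.32 CPM with dTAG-13, against 1.72, 1.98 and 1.12 CPM with DMSO (log2 2.33, adjusted p = 0.00338). In both genes the arms stood apart.

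Of 39 Hox genes listed, 15 were tested and 12 of those rose, while Hoxc4, Hoxd13 and Hoxd1 did not pass (log2 1.41, 0.51 and 0.49). Hoxc4 passed with the replicate block (adjusted p = 0.0353). Only 5 of the 15 reached the filter's minimum in all 3 DMSO libraries, so the tested members are those that had a level to test, mostly with dTAG-13. Summed over all 39 genes the level was 68.4, 78.8 and 113 CPM with dTAG-13 and 21.9, 17.6 and 16.8 CPM with DMSO. In the Hoxa cluster, Hoxa2 to Hoxa5 and Hoxa7 rose, whereas Hoxa9 stayed between 0.24 and 0.54 CPM with dTAG-13 and under 0.20 CPM with DMSO. Without an H2 library 7 Hox genes passed.

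Other developmental regulators that Polycomb silences in stem cells gave 9 rises and 2 falls among 43 tested of 55, with a median of 0.64. Their share of rises lay above the 9.46% of all genes, but 29 of the 43 reached the filter's minimum in every DMSO library. The T-box factor Tbx2 had 5.88, 6.56 and 7.78 CPM with dTAG-13 and 0.918, 0.896 and 0.873 CPM with DMSO (log2 2.85, SE 0.21, adjusted p = 7.38e-04). Barx1 (log2 2.12) and Tbx4 (log2 1.78) rose in the same way, with arms that stood apart. Sall1, a zinc finger regulator of kidney and limb, fell, with 135, 122 and 128 CPM in the dTAG-13 libraries and 316, 277 and 303 CPM in the DMSO libraries (log2 -1.22, SE 0.10, adjusted p = 0.00103). Summed over all 55 genes the dTAG-13 level was below the DMSO level, at 505, 507 and 533 CPM with dTAG-13 and 637, 601 and 625 CPM with DMSO. In every pair the fall of Sall1 alone was larger than the fall of this sum. Of the 43 tested genes, 36 had log2 values above 0 and 7 below. With the replicate block 18 rose and 3 fell. There was 1 fall without either H2 library or DMSO replicate 1. The rises numbered 3 without either H2 library, 6 without either DMSO library of clone H7 and 16 without dTAG-13 replicate 1.

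The genes of the Polycomb machinery itself moved little. Of 29 tested, 1 rose and 3 fell, with a median of -0.07 and a summed level of 3970, 3865 and 3983 CPM with dTAG-13 and 4144, 4299 and 4325 CPM with DMSO. Cbx2, a chromobox reader of PRC1, had 40.2, 34.9 and 40.1 CPM with dTAG-13, against 65.5, 52.9 and 69.1 CPM with DMSO (log2 -0.70, SE 0.12, adjusted p = 0.00942). The other falls were the PRC1 members Pcgf2 (log2 -0.46) and Cbx7 (log2 -0.40), and the rise was Cbx8 (log2 1.56), under 1 CPM in every library. The PRC2 core genes Ezh2, Suz12 and Eed had log2 values of -0.07, -0.09 and -0.03 and did not pass. None of the 4 calls held without either H2 library (adjusted p between 0.0971 and 0.178), and Cbx8 lost its call in each of the 6 fits that left out 1 library. Pcgf2 and Cbx7 were also lost without either DMSO library of clone H7 (0.12 at most), Cbx2 without DMSO replicate 1 (0.0516) and Cbx7 without dTAG-13 replicate 2 (0.0519). With the block 5 rose and 5 fell, and without dTAG-13 replicate 1 there were 5 rises and 8 falls. No gene was called without DMSO replicate 1, 1 fell without DMSO replicate 2, and leaving out dTAG-13 replicate 2 gave no rise.

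Genes of the primed epiblast, the state between naive stem cells and the germ layers, were lower with dTAG-13. Of 10 tested 8 fell (5.73% of all tested genes) and none rose, with a median of -0.88. Fgf15, a growth factor gene of this stage, had 14.4, 12.2 and 12.1 CPM with dTAG-13 and 38.4, 43.0 and 38.9 CPM with DMSO (log2 -1.64, SE 0.13, adjusted p = 7.38e-04). The zinc finger gene Zic2 had 145, 147 and 182 CPM with dTAG-13 and 262, 288 and 444 CPM with DMSO (log2 -1.04, adjusted p = 0.0021). Dnmt3b, the de novo DNA methyltransferase of the epiblast, had 496, 443 and 667 CPM with dTAG-13, against 846, 822 and 1462 CPM with DMSO (log2 -0.93, adjusted p = 0.00297). The H2 library was the highest of both arms for Zic2 and Dnmt3b but not for Fgf15, and the arms of all 3 stood apart. Without either H2 library 5 of the 10 fell, among them these 3.

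General pluripotency regulators stayed near the DMSO level. Of 26 tested, 1 rose and 3 fell, with a median of -0.11. Sox2 had 203, 183 and 190 CPM with dTAG-13 and 254, 265 and 306 CPM with DMSO (log2 -0.51, adjusted p = 0.0144), and L1td1 fell by 0.52 and Sall4 by 0.40 on the log2 scale. The naive-state regulator Tbx3 rose (log2 0.93, adjusted p = 0.0262). These 4 calls were lost without either H2 library and without DMSO replicate 2 (adjusted p between 0.0613 and 0.223), and that of Sall4 also without DMSO replicate 1 (0.0874). With the block 5 rose and 7 fell. There were 9 falls without dTAG-13 replicate 1, 5 rises without dTAG-13 replicate 2 and 2 rises without DMSO replicate 1. Nanog (log2 -0.26) and Esrrb (log2 -0.12) did not pass.

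Primitive streak and nascent mesoderm genes split. Of 20 tested 5 rose and 6 fell, with a median of -0.10. Eomes, the T-box factor that starts mesoderm and definitive endoderm, had 55.1, 43.2 and 74.2 CPM with dTAG-13 and 139, 135 and 205 CPM with DMSO (log2 -1.48, SE 0.11, adjusted p = 7.38e-04). The growth factor gene Fgf8 had 29.3, 27 and 48.2 CPM with dTAG-13 and 66.1, 74.2 and 131 CPM with DMSO (log2 -1.36, adjusted p = 7.38e-04). Foxa2, of the endoderm and the node, had 1.24, 0.802 and 6.78 CPM with dTAG-13 and 4.9, 3.58 and 25.1 CPM with DMSO (log2 -2.03). Its H2 library was the high one in both arms, and the arms overlapped.

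Cdx1, an activator of Hox genes and 1 of the 5 rises of the streak list, had 4.02, 3.10 and 3.93 CPM with dTAG-13 and 1.03, 0.801 and 0.623 CPM with DMSO (log2 2.05, SE 0.27, adjusted p = 0.00382). Brachyury (T) and Nodal also passed, with small rises of 0.41 and 0.37 on the log2 scale. Both lost the call without either H2 library (adjusted p = 0.333 at most) and without either DMSO library of clone H7 (0.17 at most). Without an H2 library 1 of the 20 rose and 3 fell. Without a DMSO library of clone H7 there were 3 rises and 3 falls (replicate 1) or 1 rise and 6 falls (replicate 2), and with the block 8 rises and 8 falls.

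Blood and endothelial genes gave 2 rises and 4 falls among 21 tested. Etv2, the factor that starts the blood and vessel lineage, had 2.01, 1.5 and 0.694 CPM with dTAG-13 and 8.12, 6.74 and 3.49 CPM with DMSO (log2 -2.16, SE 0.22, adjusted p = 0.0021). Its partner in this lineage, Tal1, fell by 1.73 (adjusted p = 0.00357). Gata2 rose by 1.03, with overlapping arms at 21.0, 24.4 and 12.6 CPM with dTAG-13 and 13.3, 13.2 and 3.37 CPM with DMSO, and it lost the call without either H2 library (adjusted p = 0.0708 at most). Etv2 and Tal1 were the 2 falls that remained without an H2 library, where no gene rose. The falls numbered 6 with the block and without dTAG-13 replicate 1, and 2 without DMSO replicate 1. The rises numbered 1 without either DMSO library of clone H7, and 3 with the block or without dTAG-13 replicate 2.

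Cardiac genes gave 7 rises and 1 fall among 17 tested, with a median of 0.44. Ttn, the gene of the giant sarcomere protein titin, had 28.9, 40.3 and 52.6 CPM with dTAG-13 and 14.4, 10.4 and 6.73 CPM with DMSO (log2 1.89, SE 0.30, adjusted p = 0.00696). Hand1, a regulator of heart and extraembryonic mesoderm, had 23.6, 29.3 and 14.4 CPM with dTAG-13, against 9.88, 10.8 and 6.98 CPM with DMSO (log2 1.28, adjusted p = 0.00287). Tnnc1 rose by 1.37, with an H2 library that was low in both arms and arms that overlapped. The defining genes Pln and Tbx5 were at or near 0, with no count for Pln in any library. Without an H2 library 3 rose and none fell, and without DMSO replicate 2 there were 4 rises. Without dTAG-13 replicate 1 there were 2 falls.

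Among 21 tested neural genes 6 rose and 2 fell. Otx1, a homeobox gene of the forebrain, had 7.04, 9.24 and 7.63 CPM with dTAG-13 and 1.92, 1.84 and 2.37 CPM with DMSO (log2 2.01, SE 0.21, adjusted p = 0.00207). The intermediate filament gene Nes, of neural progenitors, had 182, 143 and 142 CPM with dTAG-13 and 291, 249 and 253 CPM with DMSO (log2 -0.77, adjusted p = 0.00711). Neurod1, a factor of neuronal differentiation, rose (log2 1.15). Nes and Neurod1 lost the call without either H2 library (adjusted p between 0.0757 and 0.106), where Otx1 was the 1 rise left. Without DMSO replicate 2 there were 3 rises, without DMSO replicate 1 there was 1 fall, and 3 fell without dTAG-13 replicate 1 or 2 and with the block.

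Most tested keratins, the intermediate filaments of epithelia, rose. Of 10 tested 7 rose and none fell, with a median of 1.30, 9 values above 0 and 1 below (log2 -0.52). The rises numbered 5 without either H2 library. Of the 10, 8 reached the filter's minimum in all 3 DMSO libraries. The partners Krt8 and Krt18, the first keratins of simple epithelium, had 485, 364 and 363 CPM and 808, 621 and 669 CPM with dTAG-13, against 193, 215 and 115 CPM and 267, 338 and 225 CPM with DMSO. Their log2 changes were 1.25 (SE 0.16, adjusted p = 0.00363) and 1.35 (SE 0.15, adjusted p = 0.00248). Krt7 rose by 1.64 and Krt19 by 0.96 on the log2 scale, and all 4 pairs of arms stood apart. Summed over the 13 keratins in the table, the level was 1528, 1183 and 1207 CPM with dTAG-13 and 570.2, 671 and 412 CPM with DMSO.

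Junction genes followed in part. Of 22 tested 5 rose and 1 fell, with a median of 0.15. Cldn4, a claudin of tight junctions, had 516, 400 and 431 CPM with dTAG-13 and 176, 192 and 111 CPM with DMSO (log2 1.52, SE 0.16, adjusted p = 0.0021). The protease gene St14 (log2 0.56), its inhibitor Spint1 (log2 0.44) and Jup, the plakoglobin gene (log2 0.50), rose less. These 3 lost the call without either H2 library (adjusted p between 0.124 and 0.172) and without DMSO replicate 1 (at most 0.0837), and Spint1 and Jup without DMSO replicate 2 (at most 0.0886). Cdh1, the E-cadherin gene, did not pass (log2 0.21). The rises numbered 1 without either H2 library or DMSO replicate 1, 3 without DMSO replicate 2 and 9, with 3 falls, without dTAG-13 replicate 1. With the block 2 fell.

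Smooth muscle and actin cytoskeleton genes gave 13 rises among 20 tested, no fall and a median of 0.58. Acta2, the smooth muscle actin gene, had 503, 354 and 482 CPM with dTAG-13 and 121, 133 and 33.9 CPM with DMSO (log2 2.38, SE 0.38, adjusted p = 0.00755). Lmod1, which starts actin filaments in smooth muscle, had 19.8, 23.5 and 20.6 CPM with dTAG-13 and 5.81, 8.01 and 4.11 CPM with DMSO (log2 1.83, adjusted p = 0.00225). Myh11, the smooth muscle myosin gene, rose by 1.85 and Csrp1 by 0.71, and the arms of all 4 stood apart. Of the related genes outside the list, skeletal actin Acta1 rose by 1.81 and the small heat shock gene Cryab by 2.19 on the log2 scale. The rises numbered 4 without either H2 library, where Csrp1 lost its call (adjusted p = 0.114 at most), and 6 and 8 without DMSO replicate 1 and 2.

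Basement membrane genes gave 9 rises among 18 tested of 20, no fall and a median of 0.49. Lama3, of a laminin that anchors epithelia, had 25.1, 22.7 and 24.8 CPM with dTAG-13 and 11.7, 11.3 and 6.48 CPM with DMSO (log2 1.29, SE 0.19, adjusted p = 0.005). Its partner Lamb3 rose by 1.07 and the nidogen gene Nid1 by 0.99 on the log2 scale, with arms that stood apart. The rises numbered 3 without either H2 library, where Lamb3 missed the threshold (adjusted p = 0.0511 at most). They numbered 6 without DMSO replicate 1.

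Markers of fibroblasts, which were the feeder cells before differentiation, were also higher. Of 15 tested 7 rose and 1 fell, with a median of 0.92, and the summed level of the 18 genes was 210, 186 and 215 CPM with dTAG-13 and 156, 156 and 154 CPM with DMSO. Col1a2, a collagen I chain, had 24.7, 28.0 and 27.7 CPM with dTAG-13 and 14.3, 16.2 and 11.6 CPM with DMSO (log2 0.93, SE 0.15, adjusted p = 0.00695). Postn (log2 2.21) and Dcn (log2 1.15) rose, both under 5 CPM in every library, and Thy1 fell by 0.89. The defining markers Lum, Fap and Dpt had at most 4 counts in any library. The 4 named calls were lost without either H2 library (adjusted p between 0.0649 and 0.114), as were all others of the list. The rises numbered 4 without DMSO replicate 1 and 3 without DMSO replicate 2. The part of fibroblasts in the muscle, basement membrane and mesenchymal results was not tested.

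Genes of the epithelial to mesenchymal transition were mixed, with 3 rises and 2 falls among 11 tested. The repressor gene Snai2 had 1.93, 2.93 and 4.55 CPM with dTAG-13 and 1.03, 0.707 and 0.499 CPM with DMSO (log2 1.82, adjusted p = 0.0146). Vim, the vimentin gene, rose by 0.78, whereas Mmp2 fell by 0.46 and Cdh11 by 0.77. None of these 4 passed without either H2 library (adjusted p between 0.0747 and 0.261). No member fell without DMSO replicate 1 or 2, and 1 rose without DMSO replicate 2. With the block, or leaving out dTAG-13 replicate 1, there were 3 rises and 3 falls.

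Extraembryonic and germline markers were measured as other cell types that embryoid bodies can hold. Among 13 tested extraembryonic endoderm genes 4 rose and 1 fell, and the defining genes Afp and Ttr had at most 6 counts in any library. Dab2, an endocytic adaptor of this lineage, had 53, 73.9 and 56.9 CPM with dTAG-13, against 34.2, 43.1 and 36.3 CPM with DMSO (log2 0.70, adjusted p = 0.0203). Among 9 tested trophoblast genes 3 rose, with Esx1 at 17.2, 24.6 and 15.3 CPM with dTAG-13 and 9.93, 9.14 and 8.48 CPM with DMSO (log2 1.06, adjusted p = 0.00782). The placental markers Tpbpa and Prl3d1 had no count in any library. Among 19 tested germline genes 3 rose, with a median of 0.55. Tex15, a factor of the silencing of transposons in germ cells, had 46.6, 67.0 and 79.7 CPM with dTAG-13 and 28.1, 29.7 and 22.1 CPM with DMSO (log2 1.25, adjusted p = 0.00786). No member of these 3 lists passed without either H2 library, and Dab2 was also lost without DMSO replicate 1 (adjusted p = 0.0833). The endoderm fall was lost without any of dTAG-13 replicate 2 and the DMSO libraries of clone H7. Without DMSO replicate 1 and 2 the rises numbered 1 and 2 in endoderm, 1 and 1 in trophoblast and 3 and 2 in germline genes. Without dTAG-13 replicate 2 there were 2 endoderm rises, and with the block and without dTAG-13 replicate 1 there were 7 and 6 germline rises.

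**Figure D3:**
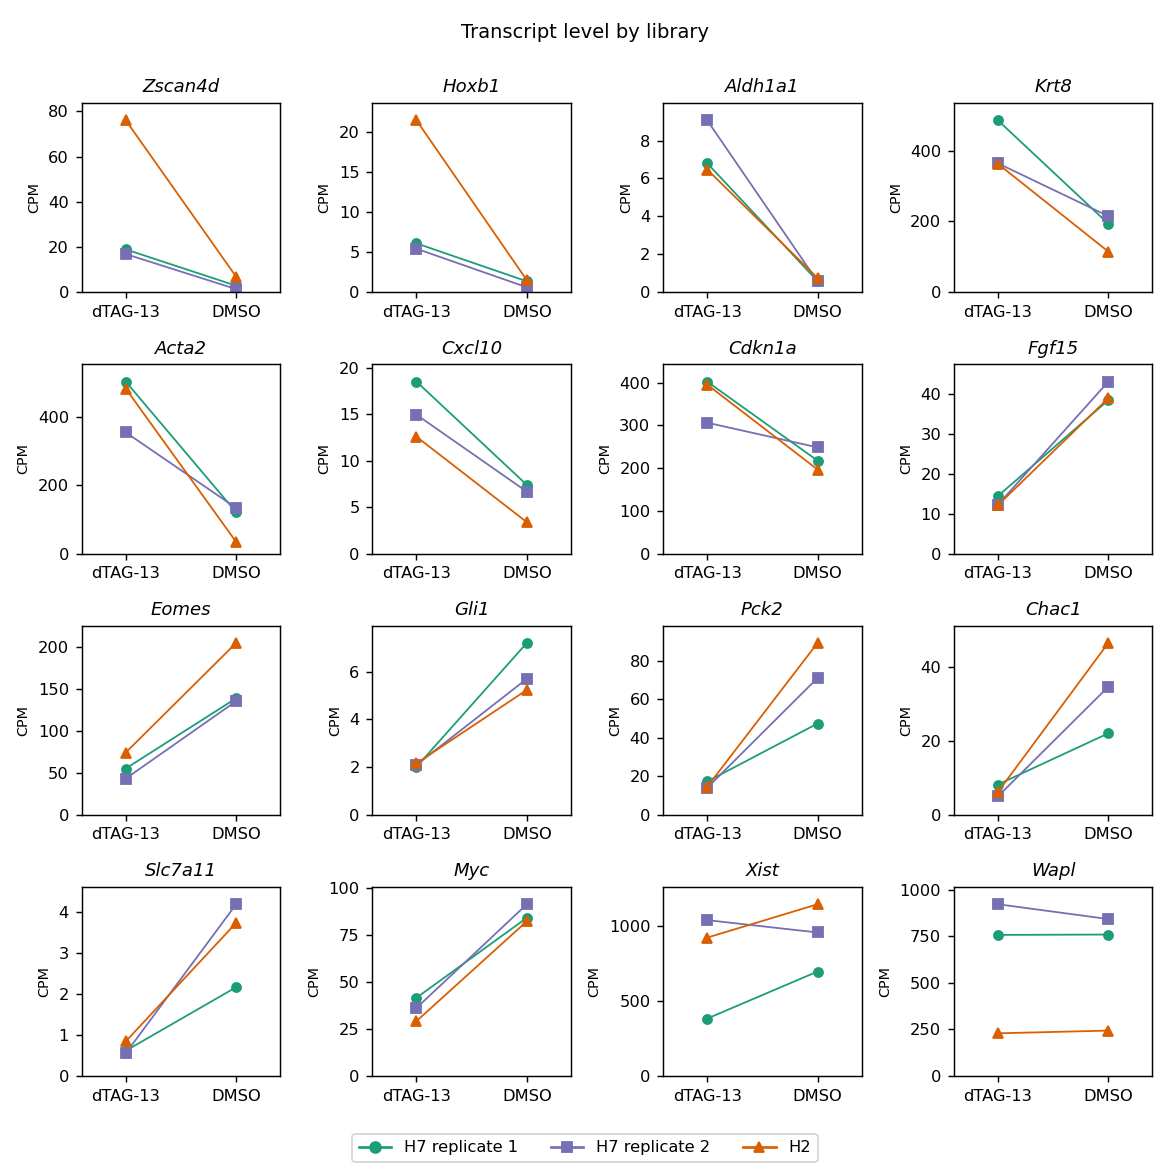
CPM of 16 genes in each library, dTAG-13 on the left and DMSO on the right of every panel, with a line joining the pair of libraries of the same clone and replicate. Every pair moves up or down together in all panels but Xist and Wapl, and Zscan4d in the H2 library with dTAG-13, at 76.1 CPM, stands far above the 2 H7 libraries at 18.9 and 16.9 CPM.

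Retinoic acid is a signal that switches on Hox genes and posterior fates, and several genes of its synthesis were among the rises. Aldh1a1, a retinaldehyde dehydrogenase, had 6.81, 9.07 and 6.47 CPM with dTAG-13 and 0.584, 0.566 and 0.748 CPM with DMSO (log2 3.65, SE 0.26, adjusted p = 7.38e-04). Aldh1a2, the main embryonic enzyme of this step, had 5.49, 5.37 and 6.63 CPM with dTAG-13 and 1.08, 0.943 and 0.748 CPM with DMSO (log2 2.55, SE 0.23, adjusted p = 0.00172). Rdh10, which makes their substrate, rose by 1.09 and Dhrs3, which removes it, fell by 0.70 on the log2 scale. The receptor gene Rarg (log2 -0.04) and the degrading enzyme gene Cyp26a1 (log2 -0.77) did not pass, though Cyp26a1 did with the replicate block (adjusted p = 0.0287). In all, 5 of 14 tested pathway genes rose and 2 fell. Rdh10 and Dhrs3 lost the call without either H2 library (adjusted p between 0.0591 and 0.106), and Dhrs3 also without DMSO replicate 2 (0.0521). That left Aldh1a1 and Aldh1a2 as the 2 rises without an H2 library, with no fall. Falls numbered 1 without dTAG-13 replicate 2 or either DMSO library of clone H7, 4 with the block and 5 without dTAG-13 replicate 1. Rises numbered 3 without DMSO replicate 2.

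Of 12 tested Hedgehog pathway genes 5 fell and 1 rose, with a median of -0.33. Gli1, the effector that the pathway itself induces, had 2.01, 2.09 and 2.16 CPM with dTAG-13 and 7.21, 5.70 and 5.24 CPM with DMSO (log2 -1.55, SE 0.21, adjusted p = 0.00385). Hhip, which binds the ligand, fell by 1.80. The inhibitor Sufu fell by 0.54, and lost the call without either H2 library or DMSO replicate 1 (adjusted p = 0.0934 at most). The ligand gene Shh had at most 2 counts in any library, and Dhh was the rise (log2 1.31). Gli1 and Hhip were among the 3 falls left without an H2 library, and 3 fell without DMSO replicate 1. The rise was lost without either H2 library, dTAG-13 replicate 2 or DMSO replicate 1, and there were 3 rises without dTAG-13 replicate 1 and 2 with the block.

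Among BMP pathway genes 3 of 17 tested rose and none fell, with a median of 0.42. The ligand gene Bmp4 had 29.2, 26.5 and 24.3 CPM with dTAG-13 and 12, 10.5 and 7.73 CPM with DMSO (log2 1.4, SE 0.14, adjusted p = 0.00196). The ligand Bmp7 (log2 0.78) and the antagonist Nog (log2 0.76) rose, and the target Id1 did not pass (log2 0.58, adjusted p = 0.0779), though it did with the replicate block (0.0017) and without dTAG-13 replicate 2 (0.0091). Bmp7 and Nog lost the call without either H2 library or DMSO replicate 1 (adjusted p between 0.0654 and 0.161), and Nog without DMSO replicate 2 (0.0876). With the block 7 rose, and without dTAG-13 replicate 2 there were 6 rises. There was 1 rise without either H2 library and 2 without either DMSO library of clone H7, and 1 fell without dTAG-13 replicate 1.

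Of 21 tested Wnt pathway genes 5 rose and 2 fell, and the 5 were all ligand genes. Wnt7b had 24.3, 27 and 16.4 CPM with dTAG-13 and 10.5, 12.2 and 3.86 CPM with DMSO (log2 1.4, SE 0.19, adjusted p = 0.00414). Wnt4 had 71.0, 69.4 and 38.5 CPM with dTAG-13 and 36.5, 37.6 and 16.5 CPM with DMSO (log2 1.01, adjusted p = 0.00225). The target genes Axin2 (log2 0.10) and Nkd1 (log2 -0.04) did not pass, and the antagonist Sfrp1 fell by 0.74. Wnt7b and Wnt4 were the 2 rises without an H2 library, where Sfrp1 missed the threshold (adjusted p = 0.084 at most) and no gene fell. There were 3 rises without DMSO replicate 1, and 1 fall without either DMSO library of clone H7.

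In the Nodal and TGF-beta list 3 of 20 tested genes rose and 2 fell. The receptor gene Acvr2b fell by 0.69 and the inhibitor Fst by 0.64, and the receptor Tgfbr2 rose by 0.76. These 3 lost the call without either H2 library (adjusted p between 0.0514 and 0.149), and Tgfbr2 without either DMSO library of clone H7 (at most 0.0626). There was 1 rise in each of these 4 fits, and no fall without either H2 library. With the block 5 rose, and without dTAG-13 replicate 1 there were 8 rises. Without dTAG-13 replicate 2 there were 4 rises and 3 falls.

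The FGF and Notch lists are short, so their shares rest on small numbers of calls, beside a background of 9.46% higher and 5.73% lower. The FGF list had 5.88% higher and 11.8% lower, and the Notch list 13.3% and 6.67%. The ligand genes Fgf15 (log2 -1.64) and Fgf8 (log2 -1.36) fell and were counted in the primed epiblast and streak lists. In the FGF list 1 of 17 tested genes rose and 2 fell, the feedback inhibitor Spry2 by 0.56 and the ligand Fgf17 by 0.90, and neither fall held without either H2 library (adjusted p = 0.0955 at most). The rise, Fgf18 (log2 0.92), was lost in 5 of the 6 fits that left out a library. In the Notch list 2 of 15 tested rose and 1 fell. The target gene Hey2 had 3.02, 3.38 and 2.93 CPM with dTAG-13, against 1.31, 1.37 and 0.997 CPM with DMSO (log2 1.33, adjusted p = 0.00859), and its call was lost without either H2 library (0.0644 at most), as were the others. Notch1 and Hes1 did not pass (log2 -0.04 and -0.07). Without dTAG-13 replicate 1 there were 3 FGF rises and 3 Notch falls, with the block 2 FGF rises and 5 Notch falls, and without DMSO replicate 2 there was 1 Notch rise and no fall.

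Genes that supply amino acids fell together. The integrated stress response raises these genes through the factor ATF4, which binds C/EBP-ATF response elements in their promoters. Of 20 tested genes of amino acid and one-carbon synthesis 14 fell and none rose, with a median of -0.68. Of 14 transporter genes 8 fell and none rose (median -0.51), and of 20 cytosolic aminoacyl-tRNA synthetase genes 10 fell and none rose (median -0.41). The background was 5.73%. Of the 16 tested integrated stress response genes outside these lists 5 fell and 1 rose, with a median of -0.29.

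The letters TGATGNAA of that element were searched on both strands in the 250 bases before the start of each gene, in the RefSeq promoters of GRCm38.p6. A promoter was given for 55 of the 70 tested genes of these 4 lists, and 12 of them (21.8%) hold a match. Over all 27025 promoters of the table the share is 3.53%, and over the 10882 tested genes with a promoter 1.85%. In the nearest 100 bases the shares are 7.27% (4 of 55) and 0.671%. The letters are in 7 of the 29 promoters of genes that fell (24.1%) and in 4 of the 25 of genes not called (16%, Aars, Got1, Nupr1 and Slc7a7), shares whose difference was not tested. The last of the 12 is that of Atf3, which rose. With the replicate block Aars (adjusted p = 0.0258) and Got1 (0.0186) passed as lower. The 7 that fell are given because they carry the letters. Each runs from 5′ to 3′ along the gene's own strand, with the match in capitals, and matches that do not begin with TGATG are on the opposite strand. They lie at chr2:119351023-119351082 (Chac1, plus strand), chr14:55540137-55540196 (Pck2, plus), chr11:120643818-120643877 (Pycr1, minus), chr6:7693210-7693258 (Asns, minus), chr3:50443627-50443705 (Slc7a11, minus), chr6:55037945-55038000 (Gars, plus) and chr15:11399659-11399699 (Tars, minus).
Chac1: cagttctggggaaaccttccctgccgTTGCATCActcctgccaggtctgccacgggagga
Pck2: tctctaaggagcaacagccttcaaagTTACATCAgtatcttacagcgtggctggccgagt
Pycr1: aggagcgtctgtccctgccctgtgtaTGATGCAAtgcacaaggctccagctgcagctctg
Asns: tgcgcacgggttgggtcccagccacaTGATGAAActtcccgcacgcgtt
Slc7a11: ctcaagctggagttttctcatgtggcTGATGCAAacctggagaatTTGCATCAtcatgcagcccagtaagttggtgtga
Gars: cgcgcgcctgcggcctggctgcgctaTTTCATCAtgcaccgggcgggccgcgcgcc
Tars: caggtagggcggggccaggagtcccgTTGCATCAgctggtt
Slc7a11 holds the letters in 2 places, and the others in 1. Chac1, Pck2 and Slc7a11 kept the call in every fit that left out a library. Gars kept it only without dTAG-13 replicate 1 (adjusted p between 0.0601 and 0.318 in the other fits). Pycr1, Asns and Tars lost it at least without either H2 library. A match is a description of letters, and binding was not measured here.

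Chac1, whose enzyme breaks down glutathione, had the largest fall among the named genes. It had 8.2, 4.99 and 6.16 CPM with dTAG-13 and 22, 34.6 and 46.5 CPM with DMSO (log2 -2.38, SE 0.27, adjusted p = 0.00263). Trib3, a pseudokinase gene induced by ATF4, had 12.1, 6.80 and 7.78 CPM with dTAG-13 and 20.0, 27.3 and 32.4 CPM with DMSO (log2 -1.57, adjusted p = 0.00753). Vldlr, a lipoprotein receptor gene, fell by 2.09. Atf4 itself did not pass (log2 -0.54, adjusted p = 0.0633, and 0.025 with the replicate block), nor did Ddit3 (log2 0.30), the gene of the death-linked factor CHOP. Atf3 had 59.6, 61.3 and 60.8 CPM with dTAG-13 and 41.3, 42.0 and 35.0 CPM with DMSO (log2 0.62, adjusted p = 0.00831). Trib3 and Atf3 lost the call without either H2 library (adjusted p = 0.0966 at most).

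Among the synthesis genes, Pck2, the mitochondrial enzyme that makes phosphoenolpyruvate, had 17.3, 14 and 14.6 CPM with dTAG-13 and 47.5, 71.2 and 89.4 CPM with DMSO (log2 -2.15, SE 0.21, adjusted p = 0.00187). Mthfd2, of mitochondrial folate metabolism, had 91.0, 80.4 and 54.3 CPM with dTAG-13 and 152, 180 and 161 CPM with DMSO (log2 -1.15, SE 0.15, adjusted p = 0.00354). Its neighbour in the pathway Mthfd1l fell by 0.91 and Aldh18a1, of proline synthesis, by 1.06. The serine synthesis genes Phgdh, Psat1 and Psph fell by 0.66, 1.05 and 0.90, and asparagine synthetase, Asns, by 0.54. These 4 lost the call without either H2 library (adjusted p between 0.0557 and 0.308), Phgdh also without either DMSO library of clone H7 (0.0645 at most) and Asns without DMSO replicate 2 (0.127). Cth, Oat, Got2, Mthfd1 and Got1 did not pass, with log2 values between -0.41 and 0.12.

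Slc7a11, the cystine importer, had 0.619, 0.558 and 0.848 CPM with dTAG-13 and 2.17, 4.20 and 3.74 CPM with DMSO (log2 -2.33, SE 0.35, adjusted p = 0.00603). Slc7a5, which brings in large neutral amino acids, had 295, 244 and 244 CPM with dTAG-13 and 484, 593 and 738 CPM with DMSO (log2 -1.20, SE 0.16, adjusted p = 0.00382). The glycine transporter gene Slc6a9 fell by 1.34 and Slc7a3, a carrier of arginine and lysine, by 0.86. Of the tRNA synthetases, which load amino acids onto tRNA, Cars had 100, 81.3 and 81.3 CPM with dTAG-13 and 132, 153 and 165 CPM with DMSO (log2 -0.77, SE 0.13, adjusted p = 0.00815). All 20 had log2 values below 0, and Cars lost the call without either H2 library (adjusted p = 0.0886 at most).

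The size of the falls differed between the pairs. The median log2 ratio of the synthesis genes was -0.36 in H7 replicate 1, -0.78 in H7 replicate 2 and -0.94 in H2, and that of the synthetases -0.17, -0.46 and -0.61. That of the transporters was -0.26, -0.54 and -0.71. The integrated stress response list had a median of -0.0015 in H7 replicate 1, -0.56 in H7 replicate 2 and -0.28 in H2. Leaving out dTAG-13 replicate 1 gave 18 falls of synthesis genes, 9 of transporters, 17 of synthetases and 7 of stress response genes. Without either H2 library the falls numbered 5, 4, 0 and 2. Without DMSO replicate 1 they numbered 12, 7, 5 and 5, and without DMSO replicate 2 they numbered 10, 4, 5 and 3. With the block 15 synthetases fell.

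**Figure D4:**
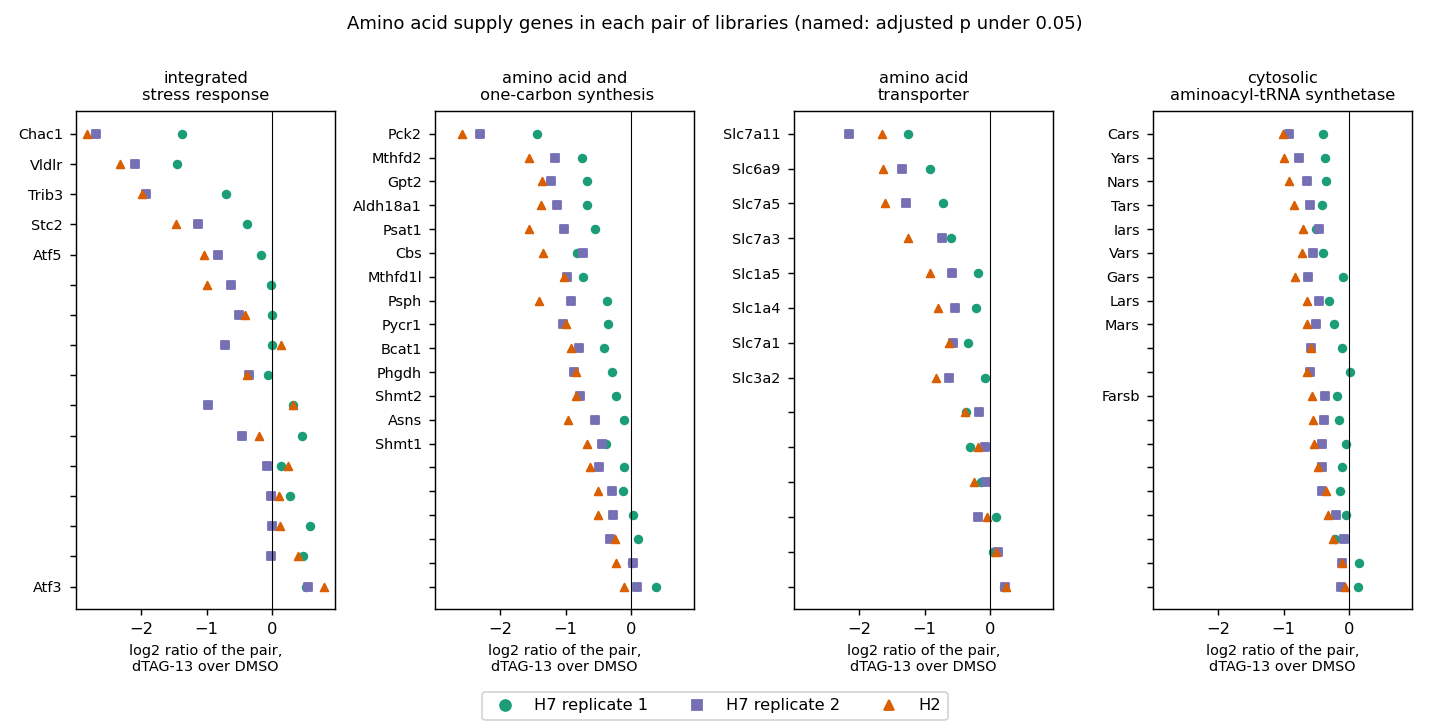
Log2 ratio of CPM (each raised by 0.5), dTAG-13 over DMSO, in each of the 3 pairs of libraries for the tested genes of 4 lists, ordered from the largest fall at the top, with names for the called genes. Most points lie left of 0, and those of H7 replicate 1 lie nearest to 0, as in Chac1, Pck2 and Slc7a5.

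The transcription factor Myc, a driver of growth, had 41.6, 36.2 and 29.2 CPM with dTAG-13 and 84.1, 91.3 and 82.3 CPM with DMSO (log2 -1.28, SE 0.12, adjusted p = 0.00174). Of 30 tested ribosome biogenesis genes 6 fell and none rose, with a median of -0.32 and all 30 values below 0. Rrs1, of the large subunit, had 91.3, 82.5 and 76.5 CPM with dTAG-13, against 129, 124 and 124 CPM with DMSO (log2 -0.60, adjusted p = 0.00711). Of 34 DNA replication genes 9 fell and none rose, with a median of -0.31 and all 34 values below 0. Rrm2, a subunit of the enzyme that makes deoxynucleotides, had 171, 174 and 131 CPM with dTAG-13 and 255, 261 and 241 CPM with DMSO (log2 -0.68, adjusted p = 0.0053). The replicative helicase genes Mcm2 to Mcm7 had log2 values between -0.38 and -0.20 and did not pass, though Mcm2 (adjusted p = 0.0454) and Mcm7 (0.0188) did with the replicate block. With the block 18 biogenesis and 19 replication genes fell, and without dTAG-13 replicate 1 there were 25 of each. None of either list fell without an H2 library, where Rrs1 and Rrm2 had adjusted p of 0.084 and 0.0646 at most. Without DMSO replicate 1 and 2 there were 1 and 2 biogenesis falls and 1 and 1 replication falls, and 4 biogenesis falls without dTAG-13 replicate 2.

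Of 18 tested cyclin, CDK and CDK inhibitor genes 4 rose and 2 fell. The neighbours Cdkn2b and Cdkn2a, whose products block entry into S phase and stabilise p53, had 18.5, 19.2 and 15.2 CPM and 37.4, 32.5 and 31.4 CPM with dTAG-13, against 7.62, 8.15 and 3.37 CPM and 18.2, 20.2 and 12.3 CPM with DMSO. Their log2 changes were 1.48 (SE 0.19, adjusted p = 0.00363) and 1.00 (SE 0.14, adjusted p = 0.00499), and the arms stood apart. Ccnd2, a D cyclin, rose by 0.98 and Cdk6 fell by 0.57. Cdkn2a narrowly lost its call without either H2 library (adjusted p = 0.0503 at most). Cdk6 lost its call there (0.124 at most) and without DMSO replicate 2 (0.0599). Without an H2 library there were 2 rises and no fall. Falls numbered 1 without DMSO replicate 1, none without DMSO replicate 2, and 4 with the block. Leaving out dTAG-13 replicate 2 gave 3 falls, and leaving out dTAG-13 replicate 1 gave 4.

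Targets of p53, the factor that answers DNA damage and stress, gave 9 rises among 24 tested and no fall, with a median of 0.41 and 23 values above 0. Btg2, an antiproliferative gene, had 256, 258 and 312 CPM with dTAG-13 and 155, 175 and 152 CPM with DMSO (log2 0.77, SE 0.11, adjusted p = 0.00545). Pmaip1, the gene of the death factor NOXA, had 178, 227 and 252 CPM with dTAG-13 and 105, 136 and 131 CPM with DMSO (log2 0.81, adjusted p = 0.00869). Perp rose by 0.95, Plk2 by 0.75, the cell cycle inhibitor Cdkn1a by 0.74 and Mdm2, which degrades p53, by 0.66. No member passed without either H2 library, where the 4 genes Btg2, Pmaip1, Perp and Plk2 had adjusted p between 0.0599 and 0.0966. With the block 16 rose. There were 15 rises without dTAG-13 replicate 1 and 4 without DMSO replicate 1, where Cdkn1a (0.054) and Mdm2 (0.0546) missed the threshold.

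Of 31 tested glycolysis and hypoxia genes 10 fell and 3 rose, with a median of -0.32. Slc16a3, the lactate exporter, had 166, 161 and 182 CPM with dTAG-13 and 284, 324 and 486 CPM with DMSO (log2 -1.07, SE 0.13, adjusted p = 0.00302). Vegfa, the vessel growth factor, fell by 1.16 and the glycolytic enzyme gene Pfkl by 0.84, and both lost the call without either H2 library (adjusted p between 0.0785 and 0.0922). Adm, the adrenomedullin gene, rose by 1.26. Without an H2 library 1 fell and 1 rose, without either DMSO library of clone H7 there were 6 falls and 1 rise, and without dTAG-13 replicate 1 there were 19 falls.

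Of 22 tested cholesterol synthesis genes 3 fell and none rose (median -0.18). Of 26 lysosome genes 4 rose and none fell (median 0.23), with the protease gene Ctsd at 428, 340 and 380 CPM with dTAG-13 and 268, 261 and 244 CPM with DMSO (log2 0.57, adjusted p = 0.0137). Neither list had a call without either H2 library, where Ctsd had an adjusted p of 0.132 at most. Without DMSO replicate 1 or 2 the lysosome list had no call and the cholesterol list 0 and 1. Ctsd had 0.0535 without DMSO replicate 1 and 0.0701 without DMSO replicate 2. With the block 6 cholesterol genes fell, 11 lysosome genes rose and 1 fell. Without dTAG-13 replicate 1 there were 9 cholesterol falls, and 6 lysosome rises with 1 fall, and without dTAG-13 replicate 2 there were 7 lysosome rises.

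Interferon response genes, which cells turn on when they sense viral or misplaced nucleic acid, were higher. Of 25 tested genes out of 29, 11 rose and none fell, with a median of 0.67. Cxcl10, a chemokine gene, had 18.5, 14.9 and 12.6 CPM with dTAG-13 and 7.37, 6.65 and 3.37 CPM with DMSO (log2 1.4, SE 0.18, adjusted p = 0.00379). Isg15, the ubiquitin-like modifier, had 8.27, 7.32 and 12.6 CPM with dTAG-13 and 3.51, 3.35 and 2.62 CPM with DMSO (log2 1.46, SE 0.23, adjusted p = 0.0073). Gbp2, a guanylate-binding protein gene, had 202, 191 and 230 CPM with dTAG-13 and 118.9, 119.4 and 101 CPM with DMSO (log2 0.87, SE 0.12, adjusted p = 0.00385). The transcription factor genes Irf9 and Irf1 did not pass (log2 0.01 and -0.06). The median log2 ratio of the list was 0.14 in H7 replicate 1, 0.58 in H7 replicate 2 and 1.22 in H2. The rises numbered 4 without either H2 library.

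The interferon-stimulated response element, searched as GAAA, any 2 bases and GAAA on both strands over the same 250 bases, was in the promoters of 8 of 18 interferon response genes (44.4%), of 4 of the 8 that rose and of 4 of the 10 not called. Over the 10882 tested genes with a promoter the share is 2.39%, and over all 27025 promoters 3.04%. In the nearest 100 bases it was in 4 of the 18 (22.2%), against 0.689% of tested genes. The 4 genes that rose and hold it are given, with matches in capitals, at chr5:92349067-92349128 (Cxcl10, minus strand), chr3:142620578-142620639 (Gbp2, plus), chr19:34640759-34640839 (Ifit1, plus) and chr4:156200849-156200922 (Isg15, minus) of GRCm38.p6. Matches that begin with TTTC are on the opposite strand.
Cxcl10: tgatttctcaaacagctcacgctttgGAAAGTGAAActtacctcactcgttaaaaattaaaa
Gbp2: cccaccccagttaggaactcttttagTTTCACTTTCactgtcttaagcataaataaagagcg
Ifit1: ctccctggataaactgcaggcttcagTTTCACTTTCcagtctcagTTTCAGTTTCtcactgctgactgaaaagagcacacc
Isg15: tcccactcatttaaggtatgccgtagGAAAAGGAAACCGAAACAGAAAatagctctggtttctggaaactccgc
In Isg15 the capitals are 3 overlapping matches, and in Ifit1 they are 2 separate ones. Cxcl10, Gbp2 and Isg15 kept the call in every fit that left out a library. Ifit1 kept it only without dTAG-13 replicate 1 (adjusted p between 0.0825 and 0.279 in the other fits).

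Antigen presentation genes, many of them interferon targets, gave 3 rises among 11 tested and no fall, with a median of 0.33. The peptide transporter gene Tap1 had 77.9, 79.4 and 75.1 CPM with dTAG-13 and 48.2, 56.1 and 39.6 CPM with DMSO (log2 0.70, SE 0.11, adjusted p = 0.00787). The class I gene H2-D1 rose by 0.57, and H2-K1 did not pass (log2 -0.01). No member passed without either H2 library, where Tap1 and H2-D1 had adjusted p of 0.0885 and 0.16 at most. There was 1 rise without DMSO replicate 1 or 2, where H2-D1 had 0.0732 at most, and with the block there were 5. The marker of white blood cells Ptprc had at most 4 counts in any library.

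Cohesin machinery genes other than Wapl were near the DMSO level, with 1 rise and no fall among 18 tested and a median of -0.09. The rise was Rec8, the cohesin subunit of meiosis, with 29.8, 30.5 and 39.8 CPM with dTAG-13 and 14.2, 17.2 and 14.2 CPM with DMSO (log2 1.11, SE 0.15, adjusted p = 0.00416). Rad21, the subunit of mitotic cohesin, had 244, 328 and 333 CPM with dTAG-13 and 299, 348 and 384 CPM with DMSO (log2 -0.19, adjusted p = 0.365). Ctcf, whose product stops loops at their anchors, had 242, 282 and 287 CPM with dTAG-13 and 301, 315 and 354 CPM with DMSO (log2 -0.26, adjusted p = 0.114). The Ctcf arms did not overlap, as in 31% of tested genes. Without dTAG-13 replicate 1 there were 2 rises and 1 fall, and with the block or without dTAG-13 replicate 2 there was 1 rise and 2 falls.

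Xist, the RNA that silences the X chromosome, differed more between libraries than between arms. It had 382, 1037 and 920 CPM with dTAG-13 and 695, 954 and 1142 CPM with DMSO (log2 -0.25, SE 0.31, adjusted p = 0.63). Dividing pair by pair, dTAG-13 was lower in H7 replicate 1 and H2 and higher in H7 replicate 2. Without dTAG-13 replicate 2 Xist was called lower (log2 -0.76, adjusted p = 0.0321), and without dTAG-13 replicate 1 the estimate was 0.06. Its antisense partner Tsix had 29.5, 28.5 and 20.2 CPM with dTAG-13 and 27.6, 25.4 and 18.2 CPM with DMSO (log2 0.13, adjusted p = 0.449). Whether counting used strand is not given in the sources used here, so reads of Xist and Tsix may not be told apart.

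Of the 10 tested genes of the X-inactivation centre 2 fell and none rose. Ftx, a noncoding RNA gene that promotes Xist expression, had 15.0, 24.9 and 18.1 CPM with dTAG-13 and 35.9, 40.5 and 30.7 CPM with DMSO (log2 -0.87, SE 0.19, adjusted p = 0.0188). Tsx fell by 1.76, to under 0.6 CPM in every dTAG-13 library. Both lost the call without either H2 library or either DMSO library of clone H7 (adjusted p between 0.0522 and 0.113). Jpx and Rlim, activators of Xist, did not pass (log2 -0.05 and 0.11). Without dTAG-13 replicate 2 there were 3 falls. The 8 listed genes of DNA methylation and demethylation had no call, and Dnmt1 had a log2 of -0.23 (adjusted p = 0.125) and Tet1 of 0.03. Dnmt3b, counted in the primed epiblast list instead, fell (log2 -0.93, adjusted p = 0.00297). With the block 1 of the 8 rose, 1 rose without dTAG-13 replicate 2, and 1 rose and 1 fell without dTAG-13 replicate 1.

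X-linked genes as a whole lay slightly higher with dTAG-13. Without Xist and Tsix, 540 tested X-linked genes had a median log2 fold change of 0.14, the highest of the 20 chromosomes, whose others lay between -0.06 and 0.03. The median ratio was 0.05 in the pair of H7 replicate 1, 0.16 in H7 replicate 2 and 0.19 in H2. Of the 540, 72 were higher (13.3%) and 24 lower (4.44%). With RLE scaling the median was 0.13 and with library totals 0.18. Chromosome 18, with 67 of its 386 tested genes higher (17.4%), had a median of 0.03. These 67 include 22 genes of the gamma protocadherin cluster, which share constant exons and are not independent. The table holds no counts per allele, so the active and inactive X were not told apart.

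**Figure D5:**
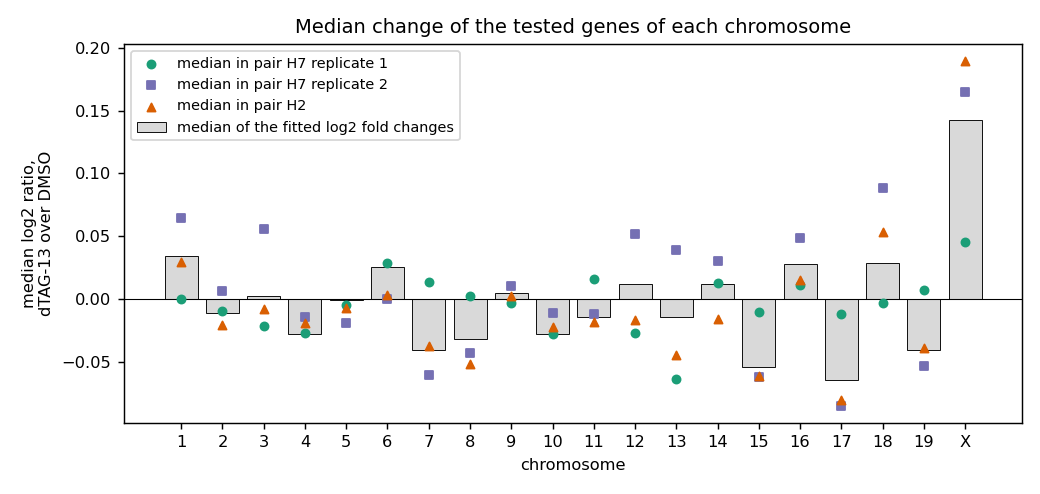
Median log2 ratio, dTAG-13 over DMSO, of the tested genes of each chromosome, as bars for the fitted fold changes and as points for each of the 3 pairs of libraries, without Xist and Tsix on X. The X bar, at 0.14, is the tallest, and its 3 points are all above 0.

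WAPL shapes loops, so calls were also placed along the chromosomes, in the gene order of RefSeq GRCm38.p6 for 13918 of the 14544 tested genes. Runs of at least 3 neighbouring tested genes called in the same direction numbered 31 for higher genes, with 136 genes, and 6 for lower genes, with 19. Runs of at least 4 numbered 14 and 1. They are given as a description. Overlapping entries of the same locus may share reads, so the runs may hold fewer separate genes than these numbers. The number expected by gene order alone, with 9.46% of tested genes higher and 5.73% lower, was not computed. The longest run held 22 genes of the gamma protocadherin cluster on chromosome 18, cell surface proteins of neurons, with a median of 0.51. Their transcripts share constant exons, so reads may be counted for several of them and the 22 are not independent. The next was in the Hoxa cluster on chromosome 6, with 8 entries and a median of 2.41.

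Other runs joined related genes. The 5 keratin genes Krt12, Krt20, Krt15, Krt19 and Krt14 on chromosome 11 had a median of 1.46, and Krt7, Krt8 and Krt18 on chromosome 15 one of 1.35. The epidermal genes Sprr2a3, Sprr1a, Crct1 and Tchh with S100a11 on chromosome 3 had a median of 1.08. Zscan4a, Zscan4b, Zscan4c, Zscan4d and Zscan4f on chromosome 7 had one of 3.17. Gbp3, Gbp2b and Gbp2 on chromosome 3 had a median of 0.96. The imprinted pair H19 and Igf2 on chromosome 7, with Mir675 and Igf2os, had a median of 1.01. Igf2, a fetal growth factor, had 96.4, 129 and 73.5 CPM with dTAG-13 and 45.0, 50.6 and 22.1 CPM with DMSO (log2 1.39, SE 0.15, adjusted p = 0.00248).

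The runs below, except that of the prion gene locus, joined genes of no shared family. Trpm6, Anxa1 and Aldh1a1 on chromosome 19 had a median of 2.00, and Anxa1, of a membrane-binding annexin, had 72.3, 77.6 and 56.9 CPM with dTAG-13 and 21.6, 26.9 and 6.73 CPM with DMSO. Gprc5a, Hebp1, Fam234b and Emp1 on chromosome 6 had a median of 0.99, with Gprc5a at 95.2, 92.3 and 58.1 CPM with dTAG-13 and 35.0, 34.1 and 10.8 CPM with DMSO (log2 1.71). The prion gene Prnp rose with Prn and Prnd, entries of the same locus on chromosome 2, at a median of 1.45. The lower run of 4, A930004D18Rik, Gm17762, Skida1 and Mllt10 on chromosome 2, had a median of -1.18. Myc ended a lower run of 3 on chromosome 15 with Trib1 and 9930014A18Rik, at a median of -0.69.

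Several of the largest single changes fell outside these lists. Jph4, of junctions between membrane and endoplasmic reticulum, had 11.3, 10.1 and 7.78 CPM with dTAG-13 and 41.7, 41.3 and 46.7 CPM with DMSO (log2 -2.15, SE 0.16, adjusted p = 7.38e-04). Cxcl12, a chemokine gene, had 11.1, 17.6 and 12.2 CPM with dTAG-13 and 43.0, 57.8 and 44.6 CPM with DMSO (log2 -1.81, adjusted p = 0.00222). The zinc and manganese carrier gene Slc39a8 fell by 1.80, Mtap7d3 by 1.78, the carbonic anhydrase gene Car14 by 1.75 and the blood progenitor factor Myb by 1.71. Gstm1, a glutathione transferase gene, fell by 1.54 and Pdzrn3 by 1.48. Col12a1, a collagen gene of stressed tissue, rose by 1.95. The arms of all 9 stood apart, as did those of 2032 of the 2209 called genes and 31% of all tested genes. Each of the 9 kept its call in all 6 fits that left out a library, as did 325 of the 2209.

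Whether the response differed between the clones was tested with a clone-by-treatment term, and no gene passed in edgeR (0% of 14544, with 302 at an unadjusted p under 0.05). DESeq2 called 1 gene, Acta2, and limma-voom called 0. The Acta2 rise in H2, 482 CPM with dTAG-13 and 33.9 CPM with DMSO, was larger than in H7 by 2.08 on the log2 scale (DESeq2 adjusted p = 3.06e-04). Since H2 has 1 library a treatment, the spread behind every p of this test comes from the H7 replicates alone. The fit has 2 residual degrees of freedom, or 1 with the replicate block or where an H7 library is left out. These p-values assume that H2 varies like H7 and are no support for a difference between the clones. With the replicate block 41 genes passed, Acta2, Acta1 and Anxa1 among them. In the fits that left out 1 H7 library, Acta2 passed without dTAG-13 replicate 1 (2.68e-04), without dTAG-13 replicate 2 (6.78e-04) and without DMSO replicate 1 (0.0192). A p that misses the threshold does not show that the clones respond alike. The median size of the log2 ratio over the 2209 called genes was 0.63 in H7 replicate 1, 0.67 in H7 replicate 2 and 0.89 in H2.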

How the data were processed

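Raw counts per gene were analysed as the authors deposited them, as whole numbers for 24421 genes, of which 4159 had no count in these 6 libraries. The submitters' processing notes name TopHat2, Bowtie2, Novoalign, cutadapt, HOMER, bedtools, deepTools, Juicer, DESeq and DESeq2 and the builds mm9, hg19 and dm6, with no role for each. Which program counted the reads, and whether by strand, is not given in the sources used here.

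Genes were kept by filterByExpr (minimum count 10) and fitted in edgeR 4.0.16 (R 4.3.3) with TMM scaling, clone and treatment as terms and the quasi-likelihood F-test. P-values were adjusted by Benjamini-Hochberg over the 14544 tested genes, with a threshold of 0.05, and every adjusted p in the text is from that test unless another tool is named. A clone-by-treatment term tested whether the clones differed. Ratios within a pair of libraries used CPM raised by 0.5. DESeq2 1.42.0, limma-voom (limma 3.58.1), RLE scaling, library totals, other filters, a replicate block, no clone term, clone H7 alone and leaving out each library were the alternatives. The code was tested on simulated data. Samples with the same number deviated together from their group means (correlations 0.518, 0.537 and 0.634). The H2 libraries carry no number in their titles and were paired by clone, so the last value also holds the clone. Within clone H7 the difference between replicates 1 and 2 correlated between the arms at 0.449. The main fit holds the clone but not the pair, which only the replicate block holds.

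Named genes were, in each direction, the 12 called genes with the largest log2 change whose sign was the same in all 3 pairs and whose average log2 CPM reached 4 (without small RNA entries, pseudogenes, RIKEN clones and predicted genes). Up to 4 members of each list with the smallest p were added, and always Wapl, Rad21, Ctcf, Xist, Tsix, Pou5f1 and Myc. Genes named beyond these, such as those in runs of neighbours, members not called and markers near 0, were chosen after their values were seen. The members and lists were chosen with earlier results of these data known. Promoters (first entry per gene) and gene order came from RefSeq, GRCm38.p6, matched by symbol, and no coordinates were converted between builds. Results on some genes are not reported here.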

Additional observations from a re-analysis of the deposited data

How the results depend on the processing

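The counts of called genes depended on the model and on the libraries. With the replicate block 2234 genes were higher and 1759 lower with dTAG-13, without the clone term 658 and 336, and in clone H7 alone 270 and 90. Leaving out 1 library gave between 253 and 2309 higher genes and between 84 and 2124 lower ones. The clone-by-treatment test called 1 gene in DESeq2, 41 with the replicate block and between 0 and 16 when 1 library was left out. The causes were not tested. RLE scaling, library totals, the other filters, DESeq2 and limma-voom kept both counts within 1.5 times. So did another quasi-likelihood setting of edgeR, chosen after seeing the data. No value reversed its direction among called results. Of the 168 named genes that were called, 88 lost the call without the dTAG-13 library of clone H2 and 88 without that of DMSO, but none with the replicate block. The fits without an H2 library both rest on clone H7 alone, with fewer libraries, and are nearly the same test. With 3 libraries an arm, clone H2 alone allows no test, and genes under about 3 counts in a library are beyond this depth.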
